A study of Mus musculus with 4 samples.

Results

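Rag1, Rag2, Dntt, Vpreb1, Vpreb3 and Igll1 were followed by name in single-cell RNA sequencing of mouse bone marrow, as 6 of the 32285 genes counted. They were proposed with the difference between PM and vehicle in these mice already known. The values that chose them were their UMI counts under PM and vehicle by stage, and the members were in that sense selected on this contrast. Their values under treatment are therefore given as a description without p-values, and tests were kept for other contrasts. The exception is Dntt in cells outside the B lineage, which was tested between PM and vehicle in these same mice. Those tests are no independent support. The tests between stages, made within mice, use the same counts by stage and are not independent of the choice. Cd79a, Igll1 and Ighd set the cells and stages below, so their own levels by stage are no result. All 4 C57BL/KawRij mice received an intravenous injection of 5TGM1-luc myeloma cells at an age of 6 weeks and served as the 5TMM model. After 3 weeks 2 mice were given vehicle and 2 mice 10 mg/kg of PM (Purinostat mesylate, an inhibitor of class I and IIb histone deacetylases), and total bone marrow was collected 24 h later, with erythrocytes lysed and 1 library made per mouse. The injected cells come from a single myeloma line, and there was no mouse without tumor among these samples.

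The recombinase made of RAG1 and RAG2 cuts immunoglobulin gene segments next to their recombination signals, and the cut ends are joined by the proteins of end joining. Terminal transferase, the product of Dntt, adds untemplated nucleotides to the ends before they are joined. After a heavy chain has been assembled, it is paired with the surrogate light chain of VPREB1 and lambda 5 (Igll1) in the pre-B cell receptor, the large pre-B cell divides, and Rag expression returns in small resting pre-B cells for light chain recombination. Vpreb3 encodes a small protein that binds immunoglobulin chains inside B-lineage cells, and Ighd encodes the delta heavy chain of mature B cells.

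In the GRCm38 annotation Rag1 lies on chr2:101638282-101649501 on the minus strand with 2 exons, and Rag2 on chr2:101624718-101632529 on the plus strand with 3 exons. They are transcribed toward each other, and 5753 bases separate their ends. Igll1 (chr16:16860671-16863985, minus strand, 3 exons) and Vpreb1 (chr16:16868403-16870843, minus strand, 2 exons) are neighbors with a gap of 4418 bases. Dntt lies on chr19:41029275-41059525 (plus strand, 11 exons), and Vpreb3 on chr10:75943057-75949657 (plus strand, 2 exons). The 250 bases before the RefSeq start (GRCm38.p6) are shown for Rag1, Rag2, Dntt and Igll1, a set that stands for the recombinase, terminal transferase and the surrogate light chain. Capitals mark each E-box (CANNTG), the motif bound by E proteins such as those encoded by Tcf3 and Tcf4. The stretches are Rag1 chr2:101649533-101649782 (minus), Rag2 chr2:101624462-101624711 (plus), Dntt chr19:41029025-41029274 (plus) and Igll1 chr16:16863986-16864235 (minus).
Rag1: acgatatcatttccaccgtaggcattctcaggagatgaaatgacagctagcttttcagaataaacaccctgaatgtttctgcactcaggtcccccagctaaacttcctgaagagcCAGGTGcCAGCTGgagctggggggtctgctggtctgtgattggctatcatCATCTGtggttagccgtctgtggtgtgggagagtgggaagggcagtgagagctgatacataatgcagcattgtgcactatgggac
Rag2: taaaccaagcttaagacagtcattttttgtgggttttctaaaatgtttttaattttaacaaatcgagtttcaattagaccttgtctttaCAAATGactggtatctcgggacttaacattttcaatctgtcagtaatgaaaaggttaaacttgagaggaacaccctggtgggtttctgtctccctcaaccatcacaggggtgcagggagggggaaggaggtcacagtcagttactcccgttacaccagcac
Dntt: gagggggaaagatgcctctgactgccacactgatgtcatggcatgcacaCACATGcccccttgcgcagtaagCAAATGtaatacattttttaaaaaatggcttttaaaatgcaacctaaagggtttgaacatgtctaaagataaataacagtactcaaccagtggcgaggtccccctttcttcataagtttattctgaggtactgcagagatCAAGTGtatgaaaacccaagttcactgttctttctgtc
Igll1: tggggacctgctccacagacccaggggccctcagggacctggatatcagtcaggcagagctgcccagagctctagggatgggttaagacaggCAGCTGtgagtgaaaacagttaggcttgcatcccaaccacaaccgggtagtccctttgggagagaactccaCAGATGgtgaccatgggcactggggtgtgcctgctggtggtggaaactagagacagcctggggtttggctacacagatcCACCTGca
Rag1, Dntt and Igll1 each hold 3 E-boxes and Rag2 holds 1, and 66.2% of all 32851 promoter stretches of this length hold at least 1. The Runx core TGTGGT, searched on both strands, occurs 2 times before Rag1 and 1 time before Igll1, against 14.0% of all stretches with a match, and was not found before Rag2 or Dntt. The Ikaros core TGGGAA occurs 1 time before Rag1 and was not found in the other 3 stretches, against 21.6% of all. The EBF1 palindrome was found in none of the 4 stretches (0.779% of all). These letters are a description of the windows and not a record of binding. The Vpreb1 stretch is not shown because 190 of its bases lie in an annotated exon.

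The libraries held 69828595 to 109447030 UMIs (unique molecular identifiers, the counted molecules). After the filter on genes and mitochondrial UMIs, 39743 cells were kept (9261 and 7826 in the vehicle mice against 13387 and 9269 after PM), with medians of 4717 to 6067 UMIs per cell. Among the kept barcode sequences 157 occurred in 2 libraries and 1 in more. Cells called as doublets made up 2.44% and 2.12% of the vehicle libraries and 5.73% and 1.96% of the PM libraries. The number of mice limits every comparison between the groups, since an exact permutation test of 2 against 2 mice cannot go below a p of 0.33. Nothing in the labels says that mice of the same number belong together.

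Cells with at least 1 Cd79a UMI, the signaling chain of the B cell receptor, numbered 4375 (344 and 1143 with vehicle, 1950 and 938 with PM). Of the UMIs of each member in all kept cells, 95.2% of Rag1, 83.8% of Rag2, 91.3% of Vpreb1, 97.6% of Vpreb3 and 94.7% of Igll1 were in these cells, but 29.9% of Dntt. The gate is broader than the B lineage. Of the Cd79a-positive cells 75.2% fell in clusters with B-lineage markers (among them Cd79a, Cd79b, Ms4a1, Ebf1, Pax5, Fcmr and Ly6d), and the others, deeper in UMIs, supplied 61.1% of the UMIs in the gate. Plasma-like cells alone supplied 17.5%. Sums over all Cd79a-positive cells therefore move with the other cells that pass the gate. Values in B-lineage-like cells are given as well, but not the levels of members within stages under PM and vehicle.

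Across the bone marrow, 5 of the 6 members were highest in B-lineage-like cells, a class of 3379 cells with a median of 2359 UMIs. Levels are CPM, the count of a gene scaled to a fixed total over the summed cells of each mouse. Vpreb3 was at 1140 and 1565 CPM in the vehicle mice against 705 and 717 after PM. Igll1 stood at 251 and 243 CPM against 222 and 248 CPM, so that the groups overlapped, while Rag2 stood at 109 and 110 CPM against 21.7 and 22.2 CPM. In this class 5 of the 6 members, all but Igll1, were lower after PM in all 4 pairs of mice, beside 22.2% of genes with at least 20 UMIs. Outside the B lineage most values were low. In neutrophil-like cells, which do not rearrange immunoglobulin genes, Igll1 was at 0.0658 to 0.419 CPM and was seen in 0.111% of cells (95% exact binomial interval 0.0689 to 0.170%, median depth 4599.5 UMIs), against 7.78% of the B-lineage-like cells (6.90 to 8.74%). These intervals cover counting error only. Vpreb3 was higher than this in the 447 plasma-like cells, at 36.6 to 72.5 CPM. A cluster of 290 cells in which 83.1% were called doublets also carried Vpreb3 (84.8 to 195 CPM) and was not named. In eosinophil/basophil-like cells vehicle replicate 2 alone carried 23.3 to 37.6 CPM of Dntt, Vpreb1, Vpreb3 and Igll1, and the other mice 0 to 8.08 CPM.

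**Figure D1:**
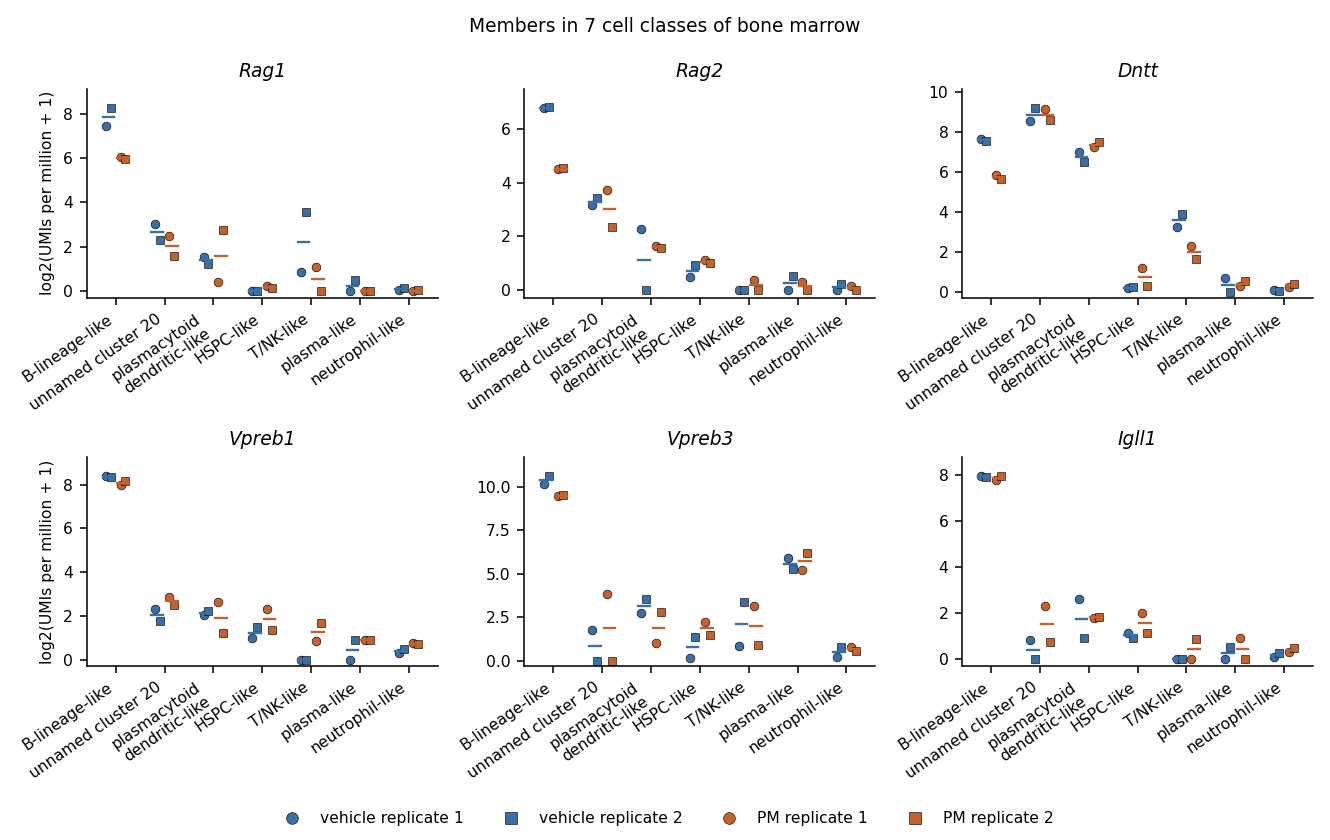
Level of each member, as log2(CPM + 1) per mouse (points, with circles for replicate 1 and squares for replicate 2) and group mean (bars), in 7 cell classes, for vehicle (blue) and PM (orange). Rag1, Rag2, Vpreb1, Vpreb3 and Igll1 are highest in B-lineage-like cells, and Dntt is highest in cluster 20 in each mouse.

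Dntt was the one member with most of its UMIs outside the B lineage. Of its 5189 UMIs, 2746 came from an unnamed cluster of 380 cells (cluster 20) whose leading genes were Dntt, Adgrl4, Adgrg1, Cd34 and Flt3. Another 1095 came from 897 plasmacytoid dendritic-like cells, led by Siglech, and 1114 from B-lineage-like cells. Dntt averaged 476 ± 117 CPM in cluster 20, 136 ± 37.3 CPM in plasmacytoid dendritic-like cells and 123 ± 80.9 CPM in B-lineage-like cells (SD, n = 4 mice). The order of the latter pair turned with the group. B-lineage-like cells were above plasmacytoid dendritic-like cells in both vehicle mice and below them in both PM mice. Eosinophil/basophil-like cells followed at 12.1 ± 17.3 CPM and T/NK-like cells at 7.15 ± 5.35 CPM, and these did not differ beyond their spread either.

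In the B lineage Dntt was at 201 and 184 CPM in the vehicle mice against 57.2 and 48.9 CPM after PM, lower in 4 of 4 pairs of a vehicle and a PM mouse. Cluster 20 had 367 and 593 CPM against 560 and 385 CPM, so the groups overlapped, with a log2 fold change of -0.01 ± 0.36 (SE; adjusted p = 0.998 by edgeR's quasi-likelihood test over 9746 genes, of which 0.0103% were called). A gene was called when its Benjamini-Hochberg adjusted p was under 0.05 and its log2 fold change over 0.5 in either direction. The estimate turns on single mice and was 0.40 without vehicle replicate 2 and 0.26 without PM replicate 2. Plasmacytoid dendritic-like cells had 126 and 89.6 CPM against 149 and 178 CPM, higher after PM in 4 of 4 pairs, with a log2 fold change of 0.59 ± 0.17 that did not pass the test (adjusted p = 0.259, 10053 genes, 0.398% called). Without the filter on low counts it was 0.58 and passed (adjusted p = 0.0294). Over all genes, cluster 20 had 1 call. Leaving out vehicle replicate 1 gave 74 calls, vehicle replicate 2 45, PM replicate 1 2 and PM replicate 2 62. In plasmacytoid dendritic-like cells there were 40 calls, and leaving out vehicle replicate 1 gave 15, vehicle replicate 2 26 and PM replicate 1 0 calls.

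Each Cd79a-positive cell was staged by its Igll1 and Ighd UMIs: Igll1-positive without Ighd (175 cells), negative for both (1486 cells), Ighd-positive without Igll1 (2616 cells), or positive for both (98 cells). The Igll1-positive stage had 16 and 63 cells in the vehicle mice against 62 and 34 after PM, and this small number bounds what its values can show. It was 92.6% B-lineage-like, against 52.3% of the stage negative for both, where 30.6% of cells carried a single Cd79a UMI and plasma-like cells supplied 33.3% of the UMIs. The stage mix differed between the groups. Igll1-positive cells made up 4.65 and 5.51% of Cd79a-positive cells in the vehicle mice against 3.18 and 3.62% after PM. Cells negative for both made up 46.2 and 46.3% against 27.0 and 29.0%. Ighd-positive cells made up 46.8 and 45.9% against 67.7 and 65.0%, and the groups did not overlap in any of the 3 stages. The share with both kinds of UMI was 2.33 and 2.27% against 2.15 and 2.35%.

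The order of the groups was the same when each cell was thinned to 1000 UMIs, where Igll1-positive cells made up 6.20 and 4.54% against 2.67 and 3.21% (5, 14, 32 and 19 shallower cells were left out). Thinning also took Cd79a UMIs away. It left 242, 904, 1313 and 654 Cd79a-positive cells of 344, 1143, 1950 and 938 (vehicle replicates 1 and 2, then PM replicates 1 and 2). Within B-lineage-like cells the stage negative for both made up 31.9 and 39.9% in the vehicle mice against 14.6 and 16.5% after PM. Shares within a mouse sum to a fixed total, so a higher share of mature cells and a lower share of precursors cannot be told apart. Cd79a-positive cells with an Igll1 UMI, here with or without Ighd, were 0.259 and 1.14% of all kept cells in the vehicle mice. After PM they were 0.777 and 0.604%, and on this scale the groups overlapped. Vehicle replicate 1 stood apart with 2.62% of its cells in the B lineage, against 12.5% in vehicle replicate 2 and 10.6 and 7.97% in the PM mice.

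**Figure D2:**
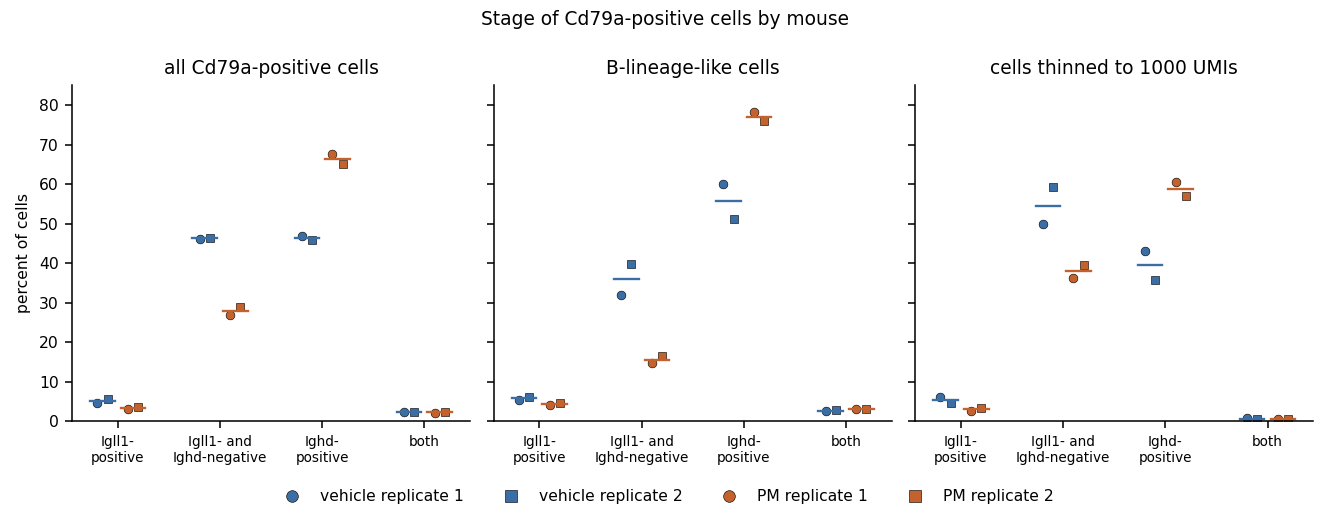
Percent of Cd79a-positive cells in each stage for each mouse (points) and group mean (bars), for all such cells, for B-lineage-like cells and after thinning to 1000 UMIs. In all 3 panels the PM mice lie below the vehicle mice in the Igll1-positive stage and in the stage negative for both, and above them in the Ighd-positive stage.

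The members sorted into those bound to the Igll1-positive stage and those spread beyond it. Vpreb1, the partner of lambda 5, was at 1778 and 1506 CPM (vehicle) and 1099 and 1145 CPM (PM) in the Igll1-positive stage and at 1.15 to 6.29 CPM in the stage negative for both. The difference within mice was 8.48 ± 0.30 on the log2 scale (SE, edgeR with mouse as a block), given without a test because Vpreb1 passed the filter on low counts through the stage where it is high. Dntt followed with 818 and 881 CPM (vehicle) and 216 and 256 CPM (PM), against 13.1 to 45.3 CPM in cells negative for both, and rose by 3.90 ± 0.62 on the log2 scale (adjusted p = 0.0194 by edgeR's quasi-likelihood test with mouse as a block). The counts by stage also chose the members. This test and those of Vpreb3 and Rag1 between stages below are therefore no independent support. In B-lineage-like cells alone the differences were 7.20 for Vpreb1 and 7.91 for Dntt, and there both genes passed the filter through the Igll1-positive stage, so that no test is given.

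Rag1, Rag2 and Vpreb3 reached into the later stages. Rag2 was higher in the Igll1-positive stage by 2.51 ± 0.54, given without a test because it passed the filter on low counts through that stage. Vpreb3 was higher by 1.74 ± 0.30 (adjusted p = 0.00999 by edgeR's quasi-likelihood test with mouse as a block). Rag1 stood 1.98 ± 0.59 higher without passing the test (adjusted p = 0.0867). In B-lineage-like cells alone these log2 differences were 0.59 for Rag2, 0.07 for Vpreb3 and 0.08 for Rag1. Neither Vpreb3 nor Rag1 passed there, so Vpreb3 was called only with the other cells of the gate included. Dntt and Vpreb3 also lost the call without vehicle replicate 1 (adjusted p = 0.0758 and 0.129) or without PM replicate 2 (0.0986 and 0.0747). Rag1 passed without vehicle replicate 2 (adjusted p = 0.000944) and without PM replicate 1 (0.00565). This comparison called 27.4% of the 8964 genes tested. The number of calls was 1614 of all genes without vehicle replicate 2 and 1525 without PM replicate 2, against 2457 with all mice.

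Other genes of the pathway also differed between the 2 stages. Their counts stand beside 27.4% of all 8964 genes tested that were called (1121 higher and 1336 lower). Of 18 tested genes of V(D)J joining outside the members, 6 rose and 1 fell in the Igll1-positive stage, with a median log2 difference of 0.65 against -0.01 over all genes. Hmgb1, a DNA-bending cofactor of the recombinase, rose by 1.59 ± 0.13 (adjusted p = 6.93e-06), and Xrcc6, which encodes the Ku70 subunit that holds DNA ends, by 1.30 ± 0.18 (adjusted p = 0.000222). Of 22 regulators of Rag and surrogate light chain genes 9 rose and 4 fell. Lef1 was at 527, 419, 216 and 204 CPM in the Igll1-positive stage of the 4 mice and at 6.55 to 18.9 CPM in cells negative for both. Its difference of 4.60 ± 0.20 is given without a test because Lef1 passed the filter on low counts through the Igll1-positive stage. Erg rose by 2.34 ± 0.28 and Id3 by 2.10 ± 0.25, and Bcl6 fell by 1.58 ± 0.38 and Spi1 by 1.46 ± 0.17. Of 13 early receptors and surface proteins 4 rose and 3 fell, among them Il7r, the receptor chain for interleukin 7, which rose by 1.82 ± 0.44 (adjusted p = 0.0392). Of 16 genes of the pre-B receptor complex and its signaling 3 rose, among them Blnk by 1.26 ± 0.15 and Pik3ap1 by 0.87 ± 0.20, and 2 fell (Bank1 and Lyn). Of 15 mature B cell genes 12 fell, including Ms4a1 by 4.44 ± 0.41, Fcmr by 4.13 ± 0.38 and Cd74 by 3.69 ± 0.29, and 19 of 20 cycling genes rose, including Pcna by 1.42 ± 0.12. The 2 stages also differ in cell type. Cells that were not B-lineage-like supplied 83.8% of the UMIs in the stage negative for both, against 13.8% in the Igll1-positive stage. The part of this in the list values was not tested.

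After PM, Rag1 and Rag2 were lower in each of the 3 stages compared. In all Cd79a-positive cells Rag1 stood at 57.6 and 160 CPM in the vehicle mice against 24.0 and 27.5 CPM after PM, and Rag2 at 35.8 and 57.3 CPM against 7.73 and 10.7 CPM. Vehicle replicate 2 was the higher of the vehicle mice for both genes, and each PM mouse lay below each vehicle mouse. The log2 fold changes were -2.22 ± 0.41 for Rag1 and -2.51 ± 0.23 for Rag2 (SE, edgeR). In the Igll1-positive stage Rag1 was at 329 and 270 CPM against 171 and 105 CPM, and Rag2 at 263 and 124 CPM against 66.5 and 72.2 CPM. A Rag1 UMI was seen in 62.5 and 52.4% of these cells against 38.7 and 41.2%. The cells of this stage were deeper after PM, with medians of 3540 and 5528 UMIs in the vehicle mice against 6846.5 and 9034.5, and more of them carried a UMI of Mki67 or Top2a, markers of dividing cells (37.5 and 52.4% against 58.1 and 76.5%). Values within that division are given further on.

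Both genes were also lower in the later stages. In cells negative for Igll1 and Ighd, Rag1 was at 41.4 and 141 CPM against 11.7 and 19.7 CPM, and Rag2 at 22.7 and 44.1 CPM against 2.50 and 6.55 CPM. In the Ighd-positive stage Rag1 was at 53.4 and 158 CPM against 10.9 and 18.0 CPM, and Rag2 at 23.4 and 48.6 CPM against 3.39 and 4.18 CPM. The log2 fold changes of Rag1 were -1.003, -2.68 and -3.01 in the 3 stages in this order, and those of Rag2 were -1.24, -3.13 and -3.32. A test of the difference between the Igll1-positive stage and cells negative for both called 5 of 9869 genes (0.0507%), and no member is tested on it here. In the 98 cells positive for both, Rag1 was at 80.3 and 229 CPM against 142 and 78.9 CPM and overlapped between the groups, while Rag2 was at 100.4 and 169 CPM against 46.6 and 21.5 CPM. The cells behind the later values differ too. Of the cells negative for both, 28.3 and 40.5% lay in the 3 early B-lineage clusters described below in the vehicle mice against 5.70 and 11.8% after PM. Of the Ighd-positive cells these were 6.83 and 20.8% against 3.03 and 6.39%. Cells that were not B-lineage-like supplied 87.4 and 70.0% against 90.2 and 87.3% of the UMIs in the stage negative for both. In the Ighd-positive stage they supplied 35.8 and 22.6% against 58.0 and 34.1%. The part of this in the lower CPM of members in these stages was not tested.

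Dntt was lower after PM without overlap in the Igll1-positive stage. There it was at 818 and 881 CPM against 216 and 256 CPM, with a log2 fold change of -1.80 ± 0.25. In cells negative for both it was at 45.3 and 13.1 CPM against 21.9 and 15.5 CPM, and in Ighd-positive cells at 75.1 and 10.8 CPM against 2.54 and 28.8 CPM. The groups overlapped in CPM in both of these stages, although the share of Ighd-positive cells with a Dntt UMI was 1.86 and 0.952% against 0.606 and 0.656%, and the sign of the fold change turned without vehicle replicate 1 (0.56 and 0.32 against -0.76 and -1.34 with all mice).

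The surrogate light chain genes differed less. Vpreb1 in the Igll1-positive stage was at 1778 and 1506 CPM against 1099 and 1145 CPM, a log2 fold change of -0.48 ± 0.22. It was seen in 93.8 and 87.3% of these cells against 90.3 and 88.2%, so on this scale the groups overlapped, and the PM cells were deeper, as given above. Igll1, which set the stage, was at 1383 and 1127 CPM against 941 and 988 CPM. Over all Cd79a-positive cells both overlapped between the groups, with Vpreb1 at 100 and 173 CPM against 88.8 and 127 CPM.

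Vpreb3 was lower after PM in each of these stages. It was at 1505 and 1502 CPM against 1132 and 1097 CPM in the Igll1-positive stage, at 274 and 710 CPM against 156 and 203 CPM in cells negative for both, and at 396 and 876 CPM against 221 and 333 CPM in the Ighd-positive stage. Its log2 fold changes were -0.37 ± 0.22, -1.54 ± 0.36 and -1.18 ± 0.39. The smallest difference was in the Igll1-positive stage, and there it was a difference in CPM alone. Cells with a Vpreb3 UMI held 10.7 and 12.5 of them against 11.35 and 12.97, and made up 93.8 and 100% of the stage against 96.8 and 100%, so the groups overlapped on both of these scales.

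**Figure D3:**
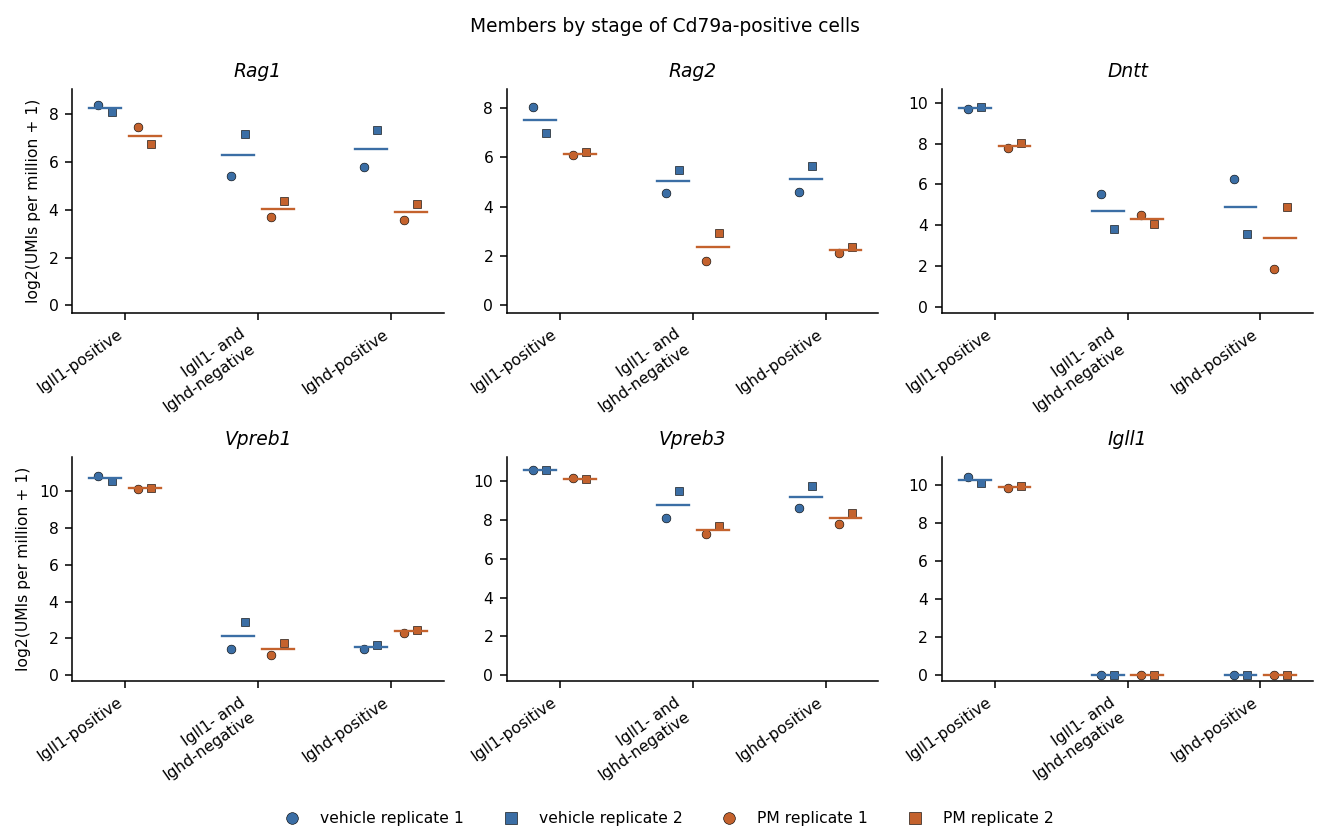
Level of each member, as log2(CPM + 1) per mouse (points) and group mean (bars), in the 3 stages of Cd79a-positive cells, with Igll1 at 0 outside its own stage by construction. Rag1, Rag2 and Vpreb3 lie lower in the PM mice in all 3 stages, and Dntt and Vpreb1 without overlap in the Igll1-positive stage.

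The counts of members have to be read beside those of all genes, and the rule used this contrast. In all Cd79a-positive cells 4 of the 6 members were lower in all 4 pairs of mice, beside 7.63% of genes with at least 20 UMIs, and in the Igll1-positive stage 5 of 5 (Igll1 aside), beside 20.9%. In cells negative for both and in Ighd-positive cells these were Rag1, Rag2 and Vpreb3, beside 8.7% and 20% of genes. The opposite order in all 4 pairs was seen for 0 of 5 members in cells negative for both (28.1% of genes) and for 1 of 5, Vpreb1, in Ighd-positive cells (19.2%), where it was at 1.67 and 2.16 CPM against 3.90 and 4.59 CPM. In the fit across all genes 0% of 11808 genes were called in all Cd79a-positive cells by edgeR, where 1169 genes had an unadjusted p under 0.05 and DESeq2 called 96 genes. The number of calls was 361 without vehicle replicate 1 and 182 without vehicle replicate 2, and was 0 without either PM mouse. In B-lineage-like Cd79a-positive cells alone 5.77% of 10593 genes were called. The members had log2 fold changes of -1.96 ± 0.25 for Rag1, -2.27 ± 0.17 for Rag2, -1.82 ± 0.15 for Dntt and -0.92 ± 0.16 for Vpreb3 (SE, without a test). Vpreb1 and Igll1 stood at -0.26 and -0.06 there.

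Within stages the fits had few calls. In the Igll1-positive stage 10 of 6824 genes were called (0.147%). Leaving out vehicle replicate 1 gave 36 calls, vehicle replicate 2 135, PM replicate 1 4 and PM replicate 2 38. In the stage negative for both, edgeR called none of 10738 genes (0%; 1049 had an unadjusted p under 0.05, and DESeq2 called 70), and 497 without vehicle replicate 1 and 190 without vehicle replicate 2. In the Ighd-positive stage 4 of 10331 genes were called (0.0387%). Leaving out vehicle replicate 1 gave 20 calls, PM replicate 1 12 and PM replicate 2 250. In B-lineage-like cells alone the 3 stages had 0.0923%, 7.75% and 1.72% of genes called. No gene of the 6 lists was called in the 4 fits that used all Cd79a-positive cells.

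A difference over all Cd79a-positive cells can come from levels within stages or from the mix of stages. Each difference between the group means was split exactly into a stage-mix part (the difference in the share of UMIs from each stage times the mean level) and a within-stage part (the difference in level times the mean share). By the Igll1 and Ighd stages the within-stage part made up 101% of the difference of Rag1, 102% of Rag2, 97.4% of Dntt, 90.6% of Vpreb1 and 107% of Vpreb3, where values over 100 mean a mix part of the opposite sign. It was the larger part in 4 of 4 pairs of mice for each of these genes except Vpreb1, where it was in 2 of 4. The stages are coarse. Each of them holds cells of several kinds, so this split was repeated with clusters of B-lineage-like cells.

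B-lineage-like cells were clustered without the members and without Vpreb2, and 3 of the 10 clusters are described here, those with at least 10 cells in every mouse and most members at a mean above 20 CPM. The first (413 cells, led by Reln, Atp1b1 and Il2ra, the interleukin 2 receptor chain of small pre-B cells) carried Rag1 with little Igll1. The second (267 cells, median 7259 UMIs, led by Pclaf, Top2a and Mki67) was cycling and carried Igll1 with little Rag1. The third (103 cells, with Arpp21 and Erg behind 4 hemoglobin genes) carried Rag1, Dntt, Vpreb1 and Igll1 together. Hbb-bs in the third cluster was at 0, 698, 320 and 19240 CPM in the 4 mice, so PM replicate 2 carried far more hemoglobin RNA there, and the part of this in its lower levels was not tested.

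In the cycling cluster Rag1 was at 81.6 and 84.5 CPM in the vehicle mice against 7.81 and 11.5 CPM after PM, and Rag2 at 184 and 128 CPM against 20.8 and 17.2 CPM. Dntt was at 190 and 344 CPM against 122 and 90.4 CPM. The surrogate light chain genes went the other way in these cells. Vpreb1 was at 455.8 and 530 CPM against 764 and 686 CPM, and Igll1 at 469 and 473 CPM against 721 and 725 CPM, both higher after PM in 4 of 4 pairs (24% of genes). Among Igll1-positive cells with a Mki67 or Top2a UMI both genes overlapped between the groups, as given further on. Rag1 there was at 51.2 and 68.6 CPM against 43.1 and 50.5 CPM and overlapped in UMIs per cell, while Rag2 overlapped on neither scale. Among cells of the cycling cluster with such a UMI, Rag1 rested on 12 and 78 UMIs in the vehicle mice against 6 and 8 after PM. Log2 fold changes in this cluster were -3.06 ± 0.38 for Rag1, -2.84 ± 0.32 for Rag2, -1.38 ± 0.26 for Dntt, -0.63 ± 0.20 for Vpreb3, 0.60 ± 0.22 for Vpreb1 and 0.68 ± 0.22 for Igll1.

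The members differed unevenly in the Reln-led cluster. Rag1 was at 728 and 1154 CPM against 826 and 747 CPM, so the groups overlapped, and Rag2 was at 347 and 265 CPM against 174 and 187 CPM. Vpreb3 was at 2705 and 2944 CPM against 2942 and 2541 CPM and overlapped as well. Vpreb1 was lower in 4 of 4 pairs, at 254 and 57.1 CPM against 53.1 and 8.12 CPM, as was Igll1 at 208 and 42.8 CPM against 37.9 and 32.5 CPM, with vehicle replicate 1 far above the other mice for both. These PM values rest on few UMIs. In the Erg-bearing cluster Dntt was at 3899 and 2399 CPM against 1030 and 596 CPM, a log2 fold change of -1.79 ± 0.29. Rag1 was at 1370 and 1357 CPM there against 1047 and 556 CPM, and Vpreb1 at 4215 and 4504 CPM against 2848 and 2198 CPM. All 6 members were lower in 4 of 4 pairs in the Erg-bearing cluster (beside 23.9% of genes), 4 of 6 in the cycling cluster (26.6%) and 3 of 6 in the Reln-led cluster (24.2%).

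Over all genes the edgeR fits called 5.65% of 7615 in the cycling cluster (430 genes, against 109 by DESeq2). They called 0.529% of 1891 in the Erg-bearing cluster (10 genes, against 2) and 3.7% of 2703 in the Reln-led cluster (100 genes, against 16). Leaving out 1 mouse moved these counts to between 119 (without PM replicate 1) and 409 genes in the cycling cluster, 19 and 29 in the Erg-bearing cluster and 29 and 93 in the Reln-led cluster.

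**Figure D4:**
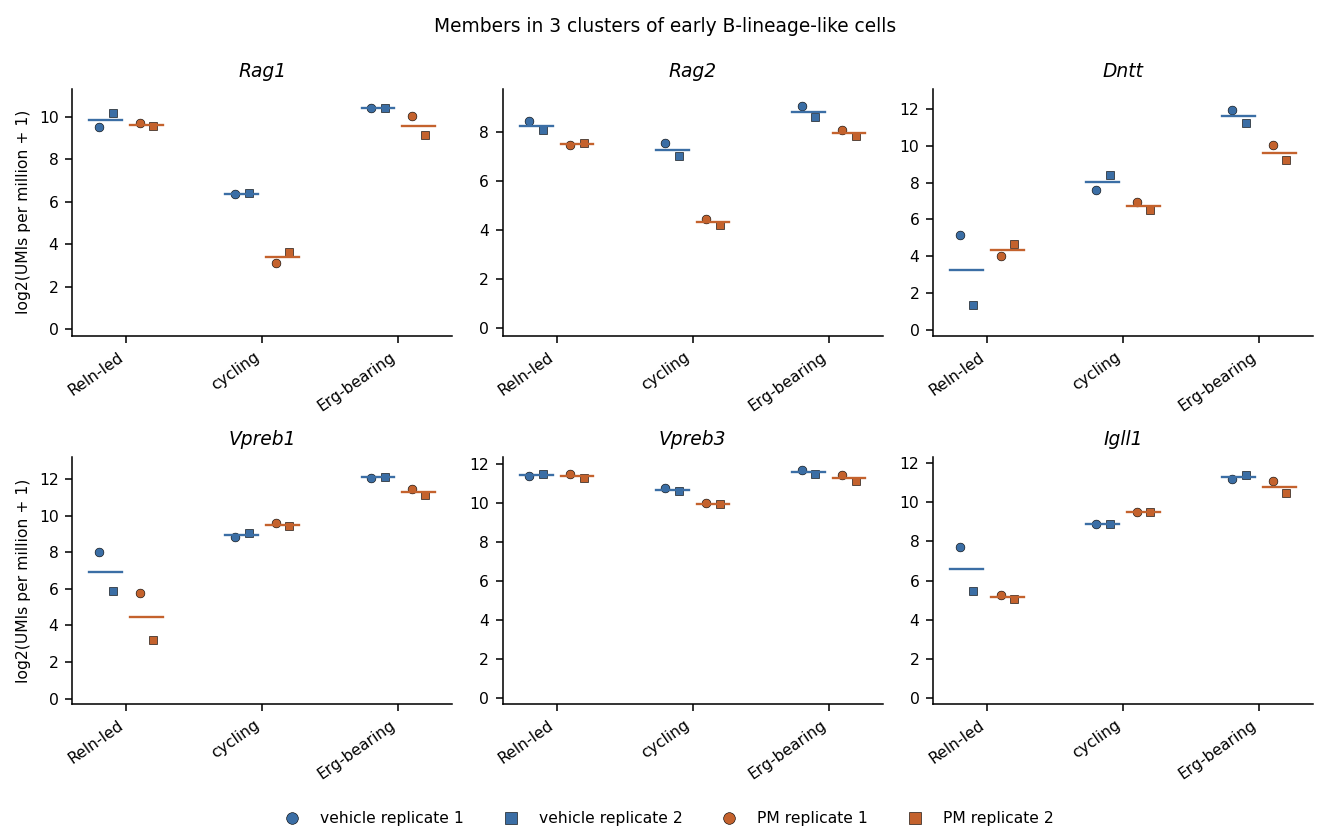
Level of each member, as log2(CPM + 1) per mouse (points) and group mean (bars), in 3 clusters of early B-lineage-like cells. In the cycling cluster Rag1, Rag2, Dntt and Vpreb3 are lower and Vpreb1 and Igll1 higher in the PM mice, and in the Erg-bearing cluster all 6 lie lower.

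Other genes of the pathway differed in the cycling cluster as well, where 5.65% of all genes tested were called. The lists and the fits within clusters were chosen with results of these data known. Their counts and p-values are therefore no independent support. Of 21 tested regulators 7 fell and none rose, with a median log2 fold change of -0.38 against 0.00 over all genes tested. Sox4 was at 1476 and 835 CPM in the vehicle mice against 379 and 598 CPM after PM (-1.14 ± 0.25, adjusted p = 0.00395, edgeR), Spib at 299 and 243 CPM against 78.1 and 136 CPM (-1.24 ± 0.25, adjusted p = 0.00243), and Foxo1, an activator of Rag transcription, at 109 and 144 CPM against 52.0 and 86.1 CPM (-0.92 ± 0.27, adjusted p = 0.0384). Of 17 genes of V(D)J joining 2 fell, and Xrcc6 was at 204 and 178 CPM against 72.9 and 71.8 CPM (-1.30 ± 0.24, adjusted p = 0.000970). Of 16 genes of the pre-B receptor complex 2 fell, namely Blnk, the adaptor downstream of SYK, by 1.33 ± 0.23 (adjusted p = 0.000504) and Syk by 1.11 ± 0.24 (adjusted p = 0.00395).

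Surface genes of the cycling cluster were called in both directions. Of 10 early receptors 3 fell, namely Cxcr4 by 1.24 ± 0.23, Il7r by 0.92 ± 0.22 and Il2ra by 1.34 ± 0.40, while of 12 mature genes 4 rose and 1 fell. Ms4a1 (CD20) was at 13.6 and 2.09 CPM against 58.5 and 77.5 CPM. Its log2 fold change of 4.17 ± 0.54 is given without a test. It rests on few UMIs in the vehicle mice and passed the filter on low counts through the PM mice, where it is high. None of the 20 cycling genes was called, at a median of -0.26. In the Reln-led cluster 5 of 12 mature genes rose, among them Cd74, the invariant chain of class II antigen presentation, at 474 and 390 CPM against 1440 and 1453 CPM (1.88 ± 0.21, adjusted p = 2.54e-16), and 2 of 17 regulators fell, Spib by 0.68 ± 0.22 and Sox4 by 0.55 ± 0.17. Bank1 rose there by 1.47 ± 0.42. In the Erg-bearing cluster H2-Ab1 (1.91 ± 0.41) and Bank1 (3.75 ± 0.68) rose, and no gene of the other 4 lists was called. The share of Ighd-positive cells was also higher in the PM mice, and the part of free RNA from those cells in the mature genes was not tested.

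For shares and for a finer split the B-lineage-like cells were clustered again without the members and without the 1157 genes that passed in any B-lineage fit of PM against vehicle. Of the earlier clusters 95.4% of the Reln-led, 96.3% of the cycling and 77.7% of the Erg-bearing cells came together again. The Reln-led cluster made up 17.7 and 31.4% of B-lineage-like cells in the vehicle mice against 5.85 and 9.34% after PM, the cycling cluster 10.3 and 11.6% against 4.93 and 7.58%, and the Erg-led cluster 4.53 and 3.07% against 2.11 and 1.89%. The PM mice lay below the vehicle mice in all 3, and a cluster of mature cells led by Gpr183 made up 51.4 and 28.3% against 63.4 and 56.0%.

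With these clusters the split came out differently. The within-cluster part was 42.0% of the difference of Rag1, 66.1% of Rag2, 72.9% of Dntt and 53.0% of Vpreb3, and it was -34.4% for Vpreb1, whose within-cluster part was positive while its mix part was negative. The within part was the larger one for 3 of 5 members, against 5 of 5 with the Igll1 and Ighd stages and 2 of 5 with the first clusters. For Rag1 the mix of clusters was the larger part in 4 of 4 pairs of mice, and for Rag2 and Dntt the within-cluster part was. Levels in the second clustering differed from the first in the Reln-led cluster, where Rag1 was at 656 and 1021 CPM against 537 and 556 CPM and the groups no longer overlapped. The cells behind these values differ too. The Reln-led cluster now held 43 and 307 cells in the vehicle mice and 83 and 69 after PM, against 40 and 271 and 54 and 48 in the first clustering. The part of this in the Rag1 values was not tested. Igll1 in the Erg-led cluster was at 2268 and 2854 CPM against 2366 and 2125 CPM and overlapped, as did Vpreb3 there. Vpreb1 and Igll1 in the Reln-led cluster overlapped as well, at 129 and 43.8 CPM against 67.7 and 45.4 CPM for Vpreb1.

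Within the Igll1-positive stage cells were divided by a UMI of Mki67 or Top2a into 10, 30, 26 and 8 cells without and 6, 33, 36 and 26 cells with one (vehicle replicates 1 and 2, then PM replicates 1 and 2). The members were lower in CPM in the cells with such a UMI, and Rag1 by the most. Rag1 was at 1098, 872, 715 and 898 CPM without and at 51.2, 68.6, 43.1 and 50.5 CPM with. This was a fall by 3.99 ± 0.24 on the log2 scale (SE, edgeR with mouse as a block). The ranges were far apart in every mouse. Rag2 fell by 2.29 ± 0.34, from 567, 220, 218 and 547 CPM to 154, 91.5, 30.8 and 39.9 CPM. Rag1 and Rag2 passed the filter on low counts through the cells without such a UMI, where they are high, so no test is given for them. Dntt fell by 2.15 ± 0.46 (adjusted p = 0.0135 by edgeR's quasi-likelihood test with mouse as a block). It went from 2727, 1372, 602 and 820 CPM to 128, 717, 125 and 218 CPM, and lost the call without PM replicate 2 (adjusted p = 0.130). Vpreb1 fell by 1.87 ± 0.19 (adjusted p = 1.76e-06) and Vpreb3 by 1.41 ± 0.19 (adjusted p = 2.66e-05).

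These cells differ in depth, and the scale decides part of the result. Cells without a Mki67 or Top2a UMI had medians of 2655, 2972.5, 3178 and 2668 UMIs, and cells with one 12244, 9795, 9350.5 and 12284.5. In UMIs per cell Rag1 was still lower, at 3.10, 3.83, 3.15 and 2.88 without and 0.667, 0.818, 0.583 and 0.731 with. Vpreb1 was at 13.6, 12.9, 11.1 and 9.88 UMIs per cell without and 8.83, 12.3, 10.3 and 14.7 with, so the ranges overlapped. Vpreb3 was at 9.23 to 10.2 UMIs per cell without and at 9.67 to 15.5 with. For Rag2, Dntt and Igll1 the ranges overlapped as well. On this scale Rag1 was the one member whose ranges did not overlap, and on both scales it was lower in 4 of 4 mice. The share of all genes whose ranges did not overlap in UMIs per cell was not computed, so this is a description only. The comparison called 30.4% of the 2343 genes tested, and 397 genes were called without vehicle replicate 2 and 447 without PM replicate 1, against 712 with all mice. DESeq2 called 19.5%.

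The division bears on the treatment values of this stage. In cells without a Mki67 or Top2a UMI, Rag1 at 1098 and 872 CPM in the vehicle mice against 715 and 898 CPM after PM overlapped between the groups, as did Rag2 and Vpreb1. Dntt did not overlap there, at 2727 and 1372 CPM against 602 and 820 CPM. In cells with such a UMI, Rag1 was at 51.2 and 68.6 CPM against 43.1 and 50.5 CPM, from 4 and 27 UMIs against 21 and 19. Rag2 was at 154 and 91.5 CPM against 30.8 and 39.9 CPM. Both were lower in CPM in 4 of 4 pairs, and the share of all genes lower in this way was not computed. In UMIs per cell Rag1 overlapped, at 0.667 and 0.818 against 0.583 and 0.731, and Rag2 did not. Dntt overlapped in CPM, as did Vpreb1 at 679 and 1029 CPM against 764 and 1013 CPM. Igll1, which set the stage, also overlapped, at 692 and 895 CPM against 758 and 909 CPM. With 6 to 36 cells behind each value, none of these was tested.

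**Figure D5:**
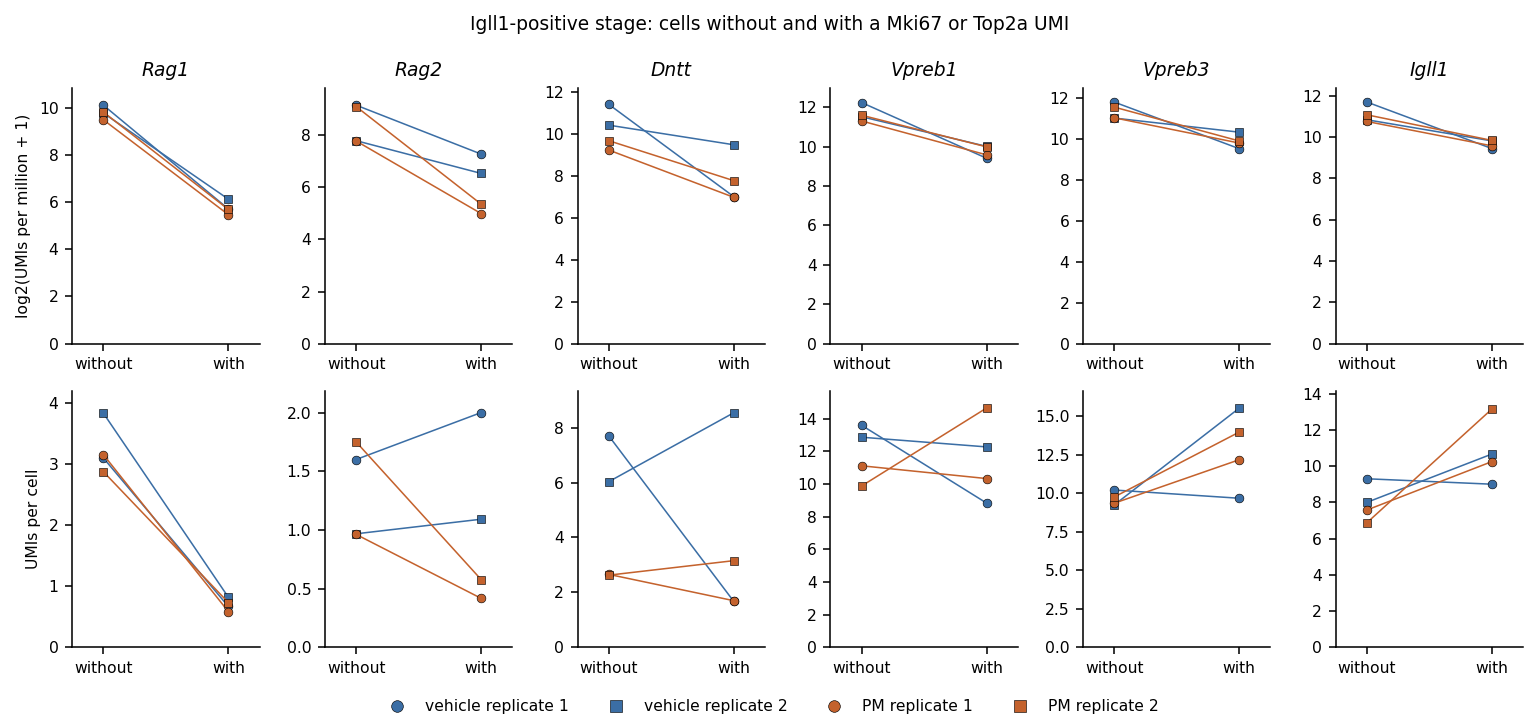
Members in Igll1-positive cells without and with a Mki67 or Top2a UMI, 1 line per mouse, as log2(CPM + 1) (top) and as UMIs per cell (bottom, axes from 0). Rag1 is lower with such a UMI on both scales in all 4 mice, while Vpreb1, Vpreb3 and Igll1 overlap in UMIs per cell.

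The lists moved with the division too, beside 30.4% of all 2343 genes tested that were called (353 higher and 359 lower). All 18 tested cycling genes rose, which follows from the markers used. Of 13 genes of the pre-B receptor complex 9 fell, including Blnk by 1.63 ± 0.24, Pik3cd by 1.37 ± 0.29 and Pik3ap1 by 1.29 ± 0.26, and of 18 regulators 11 fell, including Erg by 1.95 ± 0.33, Sox4 by 1.68 ± 0.19 and Lef1 by 1.67 ± 0.23. Medians were -1.03 and -0.84, against 0.03 over all genes tested. Of 4 tested genes of V(D)J joining Hmgb2 rose by 3.001 ± 0.21 and Hmgb1 by 1.62 ± 0.19, and Xrcc6 fell by 1.38 ± 0.33. Of 7 early receptors Cd24a rose by 0.97 ± 0.17, Bst1 fell by 1.70 ± 0.28 and Il7r by 1.40 ± 0.26. None of 4 mature genes was called (edgeR), at a median of -0.08.

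Vpreb2, a near copy of Vpreb1 at chr16:17980428-17981273, differed from it. Of the 90-base stretches of an annotated Vpreb1 transcript of 766 bases 15.8% occur unchanged in Vpreb2, so part of the reads of either gene could not be assigned, and the values of both are uncertain to that extent. Vpreb2 made up 8.19 and 9.39% of the UMIs of both genes in Cd79a-positive cells of the vehicle mice against 14.9 and 15.3% after PM. In the cycling cluster Vpreb2 was at 20.4 and 49.0 CPM against 94.97 and 118 CPM. The number of Vpreb1 UMIs per Igll1 UMI was 1.30 and 1.30 in the vehicle mice against 1.17 and 1.15 after PM.

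Likeness was measured by Pearson's r of log2(CPM + 1) over 26 sums of B-lineage-like clusters by mouse, among 6857 genes, as a description of sums that share libraries and depth. Rag1 was most like Rag2 (0.96), Tifa (0.94) and Smarca4 (0.94). Rag2 was most like Smarca4 (0.97), Tifa (0.97) and Rag1. Vpreb1 and Igll1 were most like each other (0.99), and Dntt was most like Igll1 (0.95), Vpreb1 (0.94) and Gfra2 (0.93). Vpreb3 was most like Sox4 (0.97), Bcl7a (0.96) and Chchd10 (0.95).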

How the data were processed

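Bone marrow of 4 mice was profiled with 10x 3′ chemistry. The authors deposited UMI counts per gene and cell, made with Cell Ranger 6.0.1 per the submitters' processing notes. The build is named as GRCm38 in the study's methods and GRCm39 in the notes, and the counts carry no coordinates, so GRCm38 positions are from the annotation. Cells needed 300.0 genes, with mitochondrial UMIs capped at 20%, and were clustered in scanpy 1.11.5 without the members, and called "X-like" from marker lists. Doublets were scored and kept, and left out as an alternative. Counts were summed per mouse and cell set and tested with edgeR 4.0.16 (TMM, filterByExpr, quasi-likelihood), with DESeq2 1.42.0 as an alternative. Counts simulated at a fixed dispersion were run through the edgeR fits of all Cd79a-positive cells, the stages and the within-mouse comparisons. The other fits, those within clusters and those by DESeq2 among them, were not tried on simulated data. Members and lists were chosen with earlier results of these data known. Genes of each list were named when called, at 20 CPM or more and changed alike in every mouse or pair, by the 3 largest changes in each direction. Thinning drew 1000 UMIs per cell. Alternatives changed the filters, gates, scaling, mice and clusters.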

Additional observations from a re-analysis of the deposited data

Results flagged for a closer look

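For 3 members the direction under PM differed between cell populations in every pair of a vehicle and a PM mouse, and the difference between populations was not tested. Of genes with at least 20 UMIs, 26.6% were lower and 24% higher in all 4 pairs in the cycling cluster. In the Erg-bearing cluster these were 23.9% and 15.5%, and in the Reln-led cluster 24.2% and 15.6%. The share of all genes that turn between populations was not computed, so the count of 3 is a description only. Dntt was lower in the cycling cluster (190 and 344 against 122 and 90.4 CPM) and in the Erg-bearing cluster (3899 and 2399 against 1030 and 596), and higher in plasmacytoid dendritic-like cells (126 and 89.6 against 149 and 178). Vpreb1 was lower in the Reln-led cluster (254 and 57.1 against 53.1 and 8.12) and in the Erg-bearing cluster (4215 and 4504 against 2848 and 2198), and higher in the cycling cluster (455.8 and 530 against 764 and 686). Igll1 was lower in the Reln-led cluster (208 and 42.8 against 37.9 and 32.5) and in the Erg-bearing cluster (2283 and 2714 against 2199 and 1404), and higher in the cycling cluster (469 and 473 against 721 and 725). The PM values of Vpreb1 and Igll1 in the Reln-led cluster rest on few UMIs. In the second clustering Vpreb1 and Igll1 overlapped between the groups in the Reln-led cluster, and Igll1 also in the Erg-led cluster. Groups of 2 mice allow no search for outlying samples.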

How the results depend on the processing

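Calls between PM and vehicle with all settings as reported numbered 0 in all Cd79a-positive cells, 10 in the Igll1-positive stage, 0 in the stage negative for both and 4 in the Ighd-positive stage, and the within-mouse comparisons called 2457 genes (stages) and 30.4% of genes tested (division by Mki67 and Top2a). In this order of the 4 cell sets, omitting the filter on low counts gave 567, 38, 494 and 377, leaving out cells with a Sdc1 UMI 4, 5, 40 and 0, and B-lineage-like cells alone 611, 6, 507 and 163. DESeq2 gave 96, 70 and 27 in the sets other than the Igll1-positive stage. Leaving out 1 mouse gave ranges of 0 to 361, 4 to 135, 0 to 497 and 5 to 250, and of 1525 to 2712 genes and 19.8 to 24.2% in the within-mouse comparisons. The stricter cell filter gave 3 in all Cd79a-positive cells. The Ighd-positive stage gave 1 with 2 Cd79a UMIs, 10 without cells with myeloid transcripts, 12 without doublets and 12 with a gate of 2 UMIs. The division by Mki67 and Top2a gave 19.5% with DESeq2, 7.86% without the filter and 37.3% with double-positive cells included. The causes were not tested.

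With the replicate number as a block, 11, 22, 2 and 3 genes were called in the 4 sets. Same-numbered mice correlated at 0.0589 over 6522 genes in their deviations, so nothing shows that the numbers pair the mice. Dntt in cluster 20 was at 0.0019 under the block and between -0.36 and 0.40 with 1 mouse left out, against -0.01.

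PM minus vehicle shares were -1.68 points (Igll1-positive), -18.3 (negative for both) and 19.995 (Ighd-positive). Thinning gave -2.43 and -16.7 for the first pair. The stage negative for both gave -20.7 with 2 Cd79a UMIs, -16.4 without Sdc1 cells, -22.0 with a gate of 2 UMIs and -20.3 in B-lineage-like cells, and the Ighd-positive stage 22.2 with 2 Cd79a UMIs and 23.8 with the gate. The within part was the larger for 5 members by stages, 2 by B-lineage clusters and 3 by clusters without called genes. Of 558 recomputed fold changes of members 11 had the opposite sign. The restriction to B-lineage-like cells, the inclusion of double-positive cells, the fits within clusters and the clusters without called genes were chosen after seeing the data.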
